A study of Homo sapiens with 9 samples.

Results

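The acute phase proteins described here are 10 secreted liver proteins whose genes were taken by symbol: CRP, SAA1, SAA2, SAA4, HP, HPX, ORM1, ORM2, LBP and SERPINA3. All 10 were found among the 58735 genes of the deposited tables, and 9 of them passed the filter on low counts in each comparison. The failing gene was CRP. RNA sequencing was performed in Huh-7 human hepatoma cells labelled WT (control), in the clone Ako-3 labelled APOB knock out and in the clone Mko-3 labelled MTTP knock out, with 3 biological replicates of each. Both clones were made from Huh-7 cells with CRISPR-Cas9. APOB encodes apolipoprotein B, the structural protein of triglyceride-rich lipoproteins, and MTTP encodes the large subunit of the microsomal triglyceride transfer protein that loads lipid onto it. Cells of all groups were grown in DMEM with fetal bovine serum, washed with PBS and kept overnight in serum-free medium before RNA isolation, and the labels name no added cytokine. Each knockout is represented by 1 clone, so that differences between clones that do not come from the targeted gene cannot be told apart from its loss, and p-values measure the spread between libraries of 1 clone.

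The acute phase response is the change in liver secretion that follows infection or injury. Interleukin-6 acts through its receptor IL6R, the shared subunit IL6ST and the factor STAT3, while interleukin-1 and tumor necrosis factor act through NF-kB. Factors of the C/EBP family bind the promoters of many of these genes, and SOCS3 is a feedback inhibitor of the interleukin-6 arm. Proteins that rise are called positive acute phase proteins, and those that fall, such as albumin and transthyretin, are called negative. Huh-7 cells are a hepatocyte-derived line that makes many of both.

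Upstream sequences were read from the RefSeq promoter table (GRCh38.p14), which held 5 of the 10 genes: CRP, HPX, ORM1, SAA4 and SERPINA3. HP, SAA1, SAA2, ORM2 and LBP were not matched. The 250 bases before the RefSeq start of 4 genes are given 5′ to 3′, since they stand for the patterns in these data: HPX was higher in Ako-3 cells, ORM1 was the most abundant of the 10, and SAA4 and SERPINA3 were lower in both clones. Capitals mark the letters CTGGGA, a core of the interleukin-6 response element, in HPX (chr11:6440988-6441237, minus strand), matches to the NF-kB pattern in ORM1 (chr9:114322848-114323097, plus strand) and SERPINA3 (chr14:94612141-94612390, plus strand), and matches to the C/EBP pattern TTNNGNAA in SAA4 (chr11:18236803-18237052, minus strand), each on either strand.
HPX: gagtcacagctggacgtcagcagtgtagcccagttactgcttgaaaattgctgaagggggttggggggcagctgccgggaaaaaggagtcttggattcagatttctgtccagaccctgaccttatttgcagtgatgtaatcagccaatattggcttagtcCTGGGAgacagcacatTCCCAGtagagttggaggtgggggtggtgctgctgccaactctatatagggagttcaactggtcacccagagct
ORM1: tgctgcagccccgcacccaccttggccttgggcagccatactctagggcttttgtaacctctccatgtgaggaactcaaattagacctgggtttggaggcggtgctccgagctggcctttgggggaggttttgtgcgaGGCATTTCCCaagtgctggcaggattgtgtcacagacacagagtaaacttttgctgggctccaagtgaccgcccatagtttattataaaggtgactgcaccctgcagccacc
SERPINA3: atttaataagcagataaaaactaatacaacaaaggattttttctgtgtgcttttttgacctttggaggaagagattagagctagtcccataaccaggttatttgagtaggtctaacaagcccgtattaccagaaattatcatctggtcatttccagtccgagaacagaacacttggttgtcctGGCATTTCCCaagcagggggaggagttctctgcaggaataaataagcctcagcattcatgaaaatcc
SAA4: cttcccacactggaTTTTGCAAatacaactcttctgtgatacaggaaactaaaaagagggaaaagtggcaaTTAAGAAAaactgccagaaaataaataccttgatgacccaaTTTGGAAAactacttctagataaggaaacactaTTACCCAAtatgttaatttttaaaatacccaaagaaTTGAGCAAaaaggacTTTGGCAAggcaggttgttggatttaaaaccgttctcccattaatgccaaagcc

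The HPX stretch held 2 matches to CTGGGA, which begin 90 and 74 bases before the start, and this motif was in 28.7% of the 35116 promoter stretches of the table. The SAA4 stretch held 6 matches to the C/EBP pattern, CRP and ORM1 held 2 each, and HPX and SERPINA3 held 1 each, against 33.2% of all stretches with at least 1. ORM1 and SERPINA3 each held 1 match to the NF-kB pattern, found in 54.4% of all stretches, and both matches lie in a run of 13 bases that the 2 promoters share, GGCATTTCCCAAG. In both genes a C/EBP match overlaps the NF-kB match. None of the 5 held the STAT pattern TTCNNNGAA, which was in 6.57% of all stretches. The letters TATAAA matched in CRP and ORM1, 29 bases before the start in each (10.7% of all stretches). The RefSeq start of HPX lies 1630 bases inside the gene as the deposited files delimit it, while the starts of the other printed genes lie 14 to 91 bases from the end in the files. A match is a description of these letters, and binding was not measured.

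Total counts ranged from 14638727 to 20179760 per library. Mitochondrial genes took 7.06 to 7.4% of counts in Ako-3, 5.52 to 6.17% in control and 5.75 to 5.82% in Mko-3 libraries, so that this share was highest in the clone where HP, HPX and ORM2 were highest. The targeted genes went with the labels: APOB was at 87.5 ± 6.11 FPKM in Ako-3 against 224 ± 40.5 in control cells, and MTTP was at 16.0 ± 0.656 in Mko-3 against 116 ± 5.24 (mean ± SD, n = 3). All 12 hepatocyte and hepatoma markers exceeded a mean of 1 FPKM, and their summed level was 5576 to 5855 FPKM in control, 6793 to 7172 in Ako-3 and 5372 to 5622 in Mko-3 libraries. The sum hides opposite moves of its members. Mean ALB was 2547, 2595 and 1833 FPKM in these groups, AHSG 181, 338 and 93.4, and AFP 1050, 1168 and 1840. In Mko-3 against control cells, 6 of the 12 had a log2 fold change above 0 and 6 below 0. The leukocyte markers PTPRC, CD68 and CD163 had at most 3 counts in any library, and the 9 markers of that list summed to 151 to 165, 187 to 204 and 189 to 203 FPKM. Of the 9, 2 exceeded a mean of 1 FPKM. These were LYZ, at means of 155, 187 and 191 FPKM, which made up most of the sum, and CD14, at 3.12, 5.49 and 3.87. The 6 cholangiocyte markers summed to 121 to 129, 119 to 124 and 166 to 171 FPKM with KRT7 at 0. The cholangiocyte markers did not move together either. Mean KRT19 was 3.99, 5.64 and 30.5 FPKM and mean EPCAM 31.6, 50.1 and 71.9, both highest in Mko-3. Mean SOX9 was 88.0, 64.5 and 66.8, MUC1 0.578, 0.754 and 0.289, and CFTR 0.0717, 0.0548 and 0.0706. The 8 endothelial markers summed to 9.93 to 11.4, 13.5 to 14.7 and 7.34 to 8.02 FPKM, with KDR, TEK, CLEC4G and LYVE1 at 3 counts or fewer. Of the 8, 1 exceeded a mean of 1 FPKM. This was PECAM1, at means of 9.91, 13.4 and 6.53 FPKM, the same order of groups as HP. The CDH5 means, 0.839, 0.685 and 1.06, had the reverse order, and its control libraries overlapped with both clones. The 9 fibroblast and stellate markers summed to 1.72 to 2.01, 1.34 to 1.87 and 1.08 to 1.3 FPKM, with DCN at 3 counts or fewer. The part of these differences in the results was not tested. In bulk samples, fewer cells of a type and less RNA per cell cannot be told apart.

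Control replicate 2 stood apart from the other control libraries in part of these genes. SAA1 was there at 0.428 of the mean of control replicates 1 and 3, LCN2, a positive acute phase protein outside the 10, at 0.555, LBP at 0.624 and SAA2 at 0.671, whereas ORM1 and HP were at 0.929 and 0.971. Over 15787 genes, the root mean square log2 distance of this library from the others of its group was 0.192, and that of the other 8 libraries was 0.137 to 0.174. Without it, a choice made after seeing the data, the same 5 of the 10 genes were called in each comparison with control cells, and values that moved are given beside the results.

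The 10 genes together took 0.0302 to 0.0394% of all counts in control libraries, 0.0511 to 0.0554% in Ako-3 and 0.0212 to 0.0228% in Mko-3 libraries, and the 3 groups did not overlap. Levels are given as FPKM, a level per gene length. ORM1 was the highest in every group and CRP the lowest. In control cells the order was ORM1, LBP, ORM2, SAA1, SAA2, HP, HPX, SAA4, SERPINA3 and CRP, and LBP and ORM2, ORM2 and SAA1, and HP and HPX overlapped in their libraries. In Ako-3 cells ORM2 moved to rank 2 and LBP to rank 4, HP passed SAA2 to rank 5, and no neighbours overlapped. In Mko-3 cells HPX passed SAA2, HP dropped to rank 7 and overlapped with SAA4 at rank 8. The plot of levels by library shows the spread in each group.

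**Figure D1:**
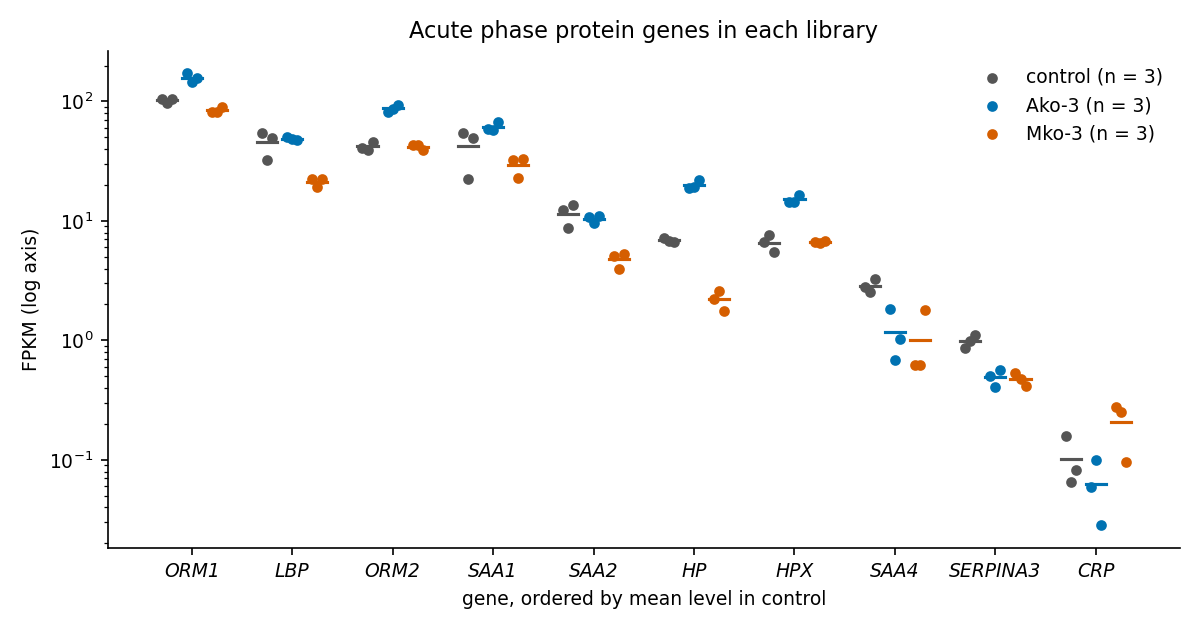
Level of each of the 10 acute phase protein genes (FPKM, log axis) in every library, ordered by the mean in control cells. Points are libraries (n = 3 per group) and short bars are group means. HP separates the groups most widely, from 1.78 to 2.6 in Mko-3 to 18.8 to 21.9 in Ako-3, and the low SAA1 and LBP point of the control group is replicate 2.

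Differences were tested with edgeR's quasi-likelihood test on counts, and a gene was called higher or lower where its log2 fold change reached 1 in size and its p, adjusted by Benjamini and Hochberg over all genes tested, did not exceed 0.05. Fold changes are differences on the log2 scale, each with its standard error. Against control cells, 3 of the 9 tested genes were higher in Ako-3 (HP, HPX, ORM2) beside 3.52% of 15787 genes, and 2 were lower (SERPINA3, SAA4) beside 5.0%. In Mko-3 cells, 0 of 9 were higher beside 3.82% of 15745 genes, and 5 were lower (HP, SAA2, SERPINA3, SAA4, LBP) beside 7.22%. In that comparison 0 genes lay above 0 at an unadjusted p under 0.05 in edgeR, and DESeq2 called the same 5 lower and 0 higher. In Mko-3 against Ako-3 cells, 0 of 9 were higher beside 2.26% of 15528 genes, and 6 were lower (HP, LBP, HPX, ORM2, SAA2, SAA1) beside 3.47%. Here too 0 lay above 0 at an unadjusted p under 0.05, and DESeq2 called the same 6 lower and 0 higher. Both comparisons with control cells use the same 3 control libraries. The median log2 fold change of the 9 genes was 0.52, -1.05 and -1.07 in these 3 comparisons, and that of all genes tested was -0.0087, -0.0108 and 0.0048. Of all calls in Ako-3 against control cells, 41.3% were higher with TMM scaling and 30.8% with total counts, which moved the median of all genes to -0.103.

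**Figure D2:**
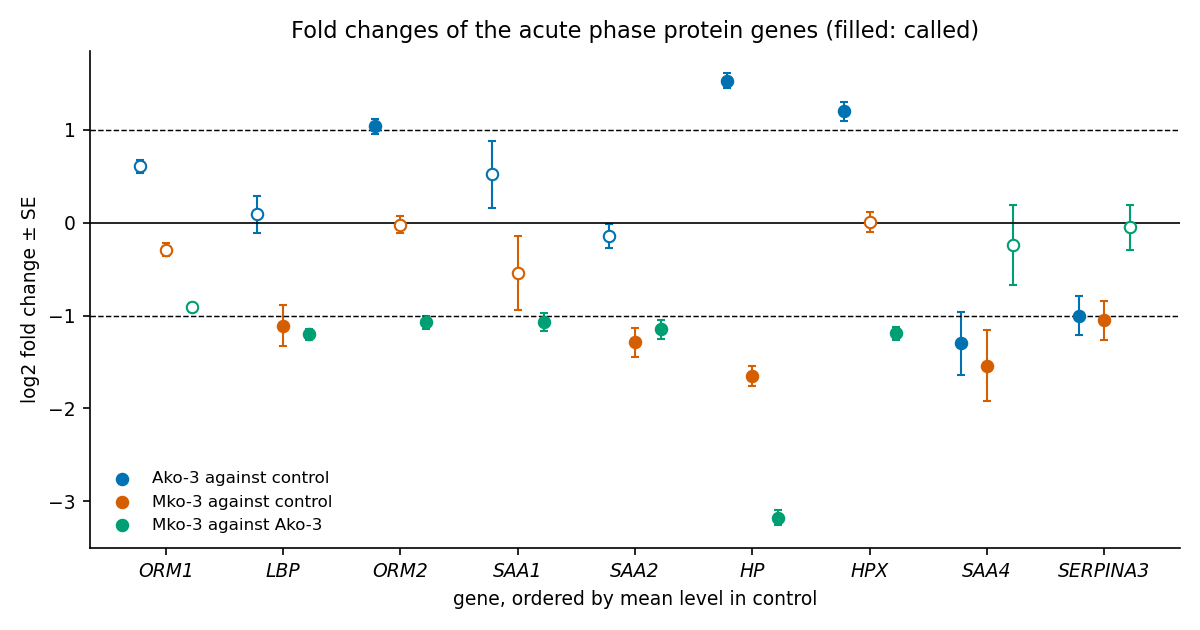
Log2 fold change ± SE of the 9 tested genes in the 3 comparisons (edgeR, n = 3 per group), ordered by level in control cells. Filled points were called, open points were not, and dashed lines mark a size of 1. HP lies at 1.53 in Ako-3 and at -1.65 in Mko-3 against control cells, while SAA4 and SERPINA3 lie at or below -1 in both.

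HP and HPX encode the scavengers of free hemoglobin and heme in plasma. HP (haptoglobin, ENSG00000257017, chr16:72054592-72061055, plus strand) was at 7.26, 6.79 and 6.71 FPKM in the control libraries, at 18.8, 19.3 and 21.9 in Ako-3 and at 2.24, 2.6 and 1.78 in Mko-3. The 3 groups did not overlap, with Ako-3 highest and Mko-3 lowest. HP rose by 1.53 ± 0.08 in Ako-3 cells (2.88-fold, adjusted p = 3.5e-12) and fell by 1.65 ± 0.11 in Mko-3 cells (3.15-fold, adjusted p = 1.3e-10). Between the clones it differed by 9.05-fold, a log2 fold change of -3.18 ± 0.08 in Mko-3 against Ako-3 (adjusted p = 5.6e-30), the largest size among the 9 genes. Leaving out each library in turn, this value stayed between -3.31 and -3.05.

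The neighbour HPR, a haptoglobin-related gene 2093 bases from HP, was at 5.61, 4.39 and 5.08 FPKM in control, 9.38, 10.0 and 10.2 in Ako-3 and 2.19, 1.97 and 1.96 in Mko-3 libraries. Its groups did not overlap either. HPR fell by 1.32 ± 0.16 in Mko-3 against control cells (adjusted p = 5.4e-07), while its fold change in Ako-3 was 0.97 ± 0.12 (adjusted p = 1.2e-06), short of the threshold of 1. HP took 79.5 ± 1.55% of the counts of the pair in control, 85.0 ± 0.657% in Ako-3 and 75.0 ± 3.53% in Mko-3 cells (SD, n = 3), with exact two-sided permutation p of 0.1 for Ako-3 and 0.3 for Mko-3 against control and 0.1 between the clones. The smallest p that 3 against 3 libraries allow is 0.1. In the GENCODE release 44 transcripts, 1.91% of the windows of 150 bases in HP, the read length, also occur in HPR.

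HPX (hemopexin, ENSG00000110169, chr11:6431049-6442617, minus strand), whose promoter is printed above, was at 6.7, 7.58 and 5.49 FPKM in control, 14.5, 14.5 and 16.4 in Ako-3 and 6.69, 6.48 and 6.83 in Mko-3 libraries. All Ako-3 libraries lay above the rest, and the Mko-3 libraries lay within the control range. HPX rose by 1.20 ± 0.1 in Ako-3 (2.3-fold, adjusted p = 6.3e-09), and in Mko-3 its fold change was 0.01 ± 0.11 (adjusted p = 0.95). In Mko-3 against Ako-3 cells it fell by 1.19 ± 0.07 (2.28-fold, adjusted p = 1.9e-24).

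ORM1 and ORM2 encode the orosomucoids, glycoproteins that bind drugs and lipids in plasma. ORM1 (ENSG00000229314, chr9:114323056-114326475, plus strand) was at 105, 97.5 and 105 FPKM in control, 172, 145 and 156 in Ako-3 and 81.5, 81.8 and 90.2 in Mko-3 libraries. The groups did not overlap, and no difference reached the threshold on size. The log2 fold change was 0.61 ± 0.07 in Ako-3 (adjusted p = 5.9e-07) and -0.29 ± 0.07 in Mko-3 (adjusted p = 0.0012) against control cells, and -0.91 ± 0.05 between the clones (adjusted p = 3e-23).

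ORM2 (ENSG00000228278, chr9:114329869-114333252, plus strand) was at 40.9, 39.5 and 46.2 FPKM in control, 81.9, 85.9 and 94.3 in Ako-3 and 43.0, 43.6 and 39.0 in Mko-3 libraries. Ako-3 stood above both other groups, which overlapped. ORM2 rose by 1.04 ± 0.08 in Ako-3 (2.06-fold, adjusted p = 4.1e-09) and lay at -0.02 ± 0.09 in Mko-3 (adjusted p = 0.84), and the clones differed by -1.07 ± 0.07 (2.1-fold, adjusted p = 2e-23). The call in Ako-3 was lost with total counts in place of TMM (0.95) and without Ako-3 replicate 3 (0.992).

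Reads of the ORM pair can be split between its members, since 19.1% of the windows of 150 bases in ORM1 and 22.3% of those in ORM2 occur in both. With the counts of the pair summed, the fold change was 0.74 in Ako-3 and -0.22 in Mko-3 against control cells and -0.96 between the clones. ORM1 took 75.3, 74.5 and 72.9% of the summed counts in control, 71.4, 66.6 and 66.2% in Ako-3 and 69.2, 69.0 and 73.3% in Mko-3 libraries. The control libraries lay above all Ako-3 libraries (exact two-sided permutation p = 0.1), and Mko-3 overlapped with both (p = 0.2 against control and 0.3 against Ako-3).

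**Figure D3:**
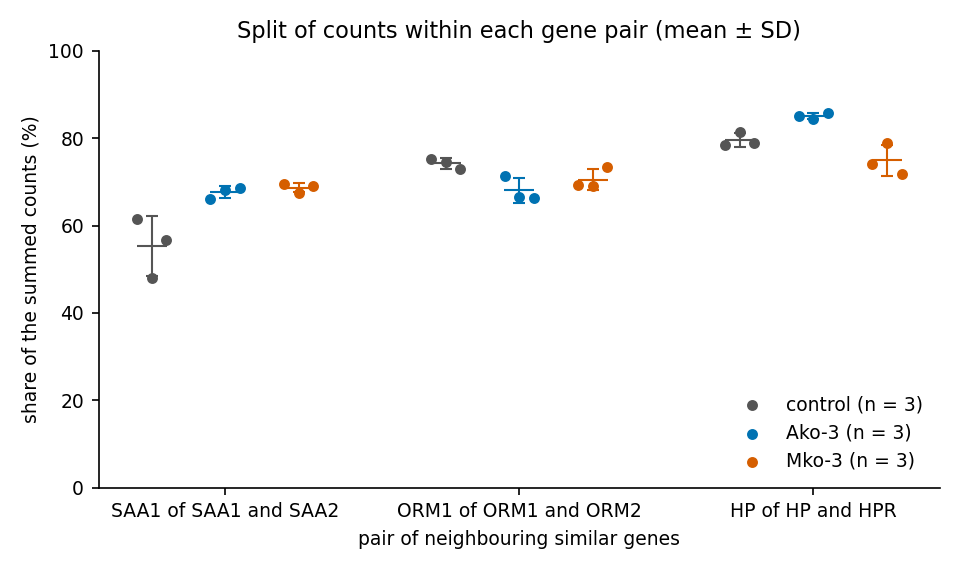
Share of the summed counts (%) taken by the first gene of each pair of neighbouring similar genes, in every library (points) with mean ± SD (n = 3 per group). SAA1 took 48.0 to 61.4% in control and 66.1 to 69.5% in the clones, and the ORM1 share ran from 66.2 to 71.4% in Ako-3 libraries, below the 72.9 to 75.3% of the control libraries.

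SAA1, SAA2 and SAA4 encode serum amyloid A proteins, which circulate on high density lipoproteins. SAA1 and SAA2 are the inducible forms, and SAA4 is known as the constitutive form. SAA1 (ENSG00000173432, chr11:18266174-18269977, plus strand) was at 54.7, 22.3 and 49.4 FPKM in control, 59.0, 57.8 and 67.1 in Ako-3 and 32.6, 22.8 and 32.9 in Mko-3 libraries. Ako-3 lay above all other libraries, and control replicate 2 lay below every library of both clones. The fold change was 0.52 ± 0.36 in Ako-3 (adjusted p = 0.30) and -0.54 ± 0.4 in Mko-3 (adjusted p = 0.32), and without control replicate 2 it was 0.23 (adjusted p = 0.023) and -0.83 (adjusted p = 6.1e-06), below the threshold of 1 in size in each case. In Mko-3 against Ako-3, where no control library enters, SAA1 fell by 1.07 ± 0.1 (2.1-fold, adjusted p = 5.7e-08). This call was lost in a fit of all 9 libraries (adjusted p = 0.052) and without Mko-3 replicate 2 (-0.91).

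SAA2 (ENSG00000134339, chr11:18239223-18248643, minus strand) was at 12.3, 8.65 and 13.5 FPKM in control, 10.8, 9.64 and 11.0 in Ako-3 and 5.12, 3.93 and 5.25 in Mko-3 libraries. The Ako-3 libraries lay within the control range and the Mko-3 libraries below both. SAA2 lay at -0.14 ± 0.13 in Ako-3 (adjusted p = 0.40) and fell by 1.29 ± 0.16 in Mko-3 cells (2.44-fold, adjusted p = 6.3e-06), and by 1.44 without control replicate 2. Between the clones it fell by 1.15 ± 0.1 in Mko-3 (2.21-fold, adjusted p = 1.3e-15).

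SAA1 took 61.4, 48.0 and 56.7% of the counts of SAA1 and SAA2 in control, 66.1, 68.2 and 68.6% in Ako-3 and 69.5, 67.5 and 69.1% in Mko-3 libraries. Each clone lay above all control libraries. The mean share exceeded the control mean by 12.3 points in Ako-3 and 13.4 in Mko-3 (exact two-sided permutation p = 0.1 for each). The means of the clones differed by 1.09 points (exact p = 0.4). Without control replicate 2 the control mean was 59.0%, and the clones lay 8.57 and 9.66 points above it. Of the windows of 150 bases, 8.94% of those in SAA1 and 9.14% of those in SAA2 occur in another gene of the cluster. The summed counts of the pair changed by 0.28 in Ako-3 (adjusted p = 0.48), by -0.82 in Mko-3 (adjusted p = 0.099) and by -1.09 between the clones (adjusted p = 5e-06). Without control replicate 2 they changed by 0.04 in Ako-3 (adjusted p = 0.71) and fell by 1.05 in Mko-3 (adjusted p = 1.4e-07), which passes the threshold.

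SAA4 (ENSG00000148965, chr11:18231349-18236893, minus strand), whose promoter held the 6 C/EBP matches, was at 2.78, 2.52 and 3.25 FPKM in control, 1.83, 0.69 and 1.02 in Ako-3 and 0.618, 0.621 and 1.79 in Mko-3 libraries. Both clones lay below the control libraries and overlapped each other. These levels rest on 28 to 43 counts in control, 10 to 22 in Ako-3 and 8 to 20 in Mko-3 libraries. SAA4 fell by 1.30 ± 0.34 in Ako-3 (2.46-fold, adjusted p = 0.0036) and by 1.54 ± 0.38 in Mko-3 (2.91-fold, adjusted p = 0.0015), and between the clones its fold change was -0.24 ± 0.43 (adjusted p = 0.69). Leaving out Ako-3 or Mko-3 libraries moved this last value between -0.9 and 0.2. In GENCODE release 44, 75.6% of the exon bases of SAA4 also lie in the readthrough gene SAA2-SAA4, which had 0 to 6 counts per library. The pseudogene SAA3P of the same cluster had at most 2 counts.

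LBP encodes the lipopolysaccharide-binding protein, which hands bacterial lipopolysaccharide to CD14. LBP (ENSG00000129988, chr20:38346356-38377023, plus strand) was at 54.7, 32.4 and 49.1 FPKM in control, 50.0, 48.1 and 47.9 in Ako-3 and 22.5, 19.1 and 22.3 in Mko-3 libraries. Mko-3 lay below every other library, and Ako-3 lay within the control range. LBP lay at 0.09 ± 0.2 in Ako-3 (adjusted p = 0.73) and fell by 1.11 ± 0.22 in Mko-3 cells (2.16-fold, adjusted p = 0.0077). The fall was 1.29 without control replicate 2 (adjusted p = 2e-14), and without control replicate 1 the value was -0.952, no longer called. Between the clones LBP fell by 1.20 ± 0.06 in Mko-3 (2.3-fold, adjusted p = 7.5e-29).

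SERPINA3 encodes alpha-1-antichymotrypsin, an inhibitor of neutrophil cathepsin G. SERPINA3 (ENSG00000196136, chr14:94612377-94624055, plus strand) was at 0.861, 0.981 and 1.11 FPKM in control, 0.506, 0.411 and 0.561 in Ako-3 and 0.538, 0.473 and 0.415 in Mko-3 libraries. Both clones lay below all control libraries. The levels rest on 75 to 101 counts in control, 41 to 49 in Ako-3 and 32 to 48 in Mko-3 libraries. SERPINA3 fell by 1.00 ± 0.21 in Ako-3 (2.01-fold, adjusted p = 0.0004) and by 1.05 ± 0.21 in Mko-3 (2.07-fold, adjusted p = 0.00018), both at the edge of the threshold on size, and the clones differed by -0.05 ± 0.24 (adjusted p = 0.90). The Ako-3 call was lost in DESeq2 (-0.996) and in 4 further count fits, where values ran from -0.996 to -0.877, and the Mko-3 call was lost in 2 leave-one-out fits (-0.955 and -0.956).

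In GENCODE release 44, 31.7% of the exon bases of SERPINA3 also lie in an exon of ENSG00000273259, a gene on the same strand. The files list ENSG00000273259 as AL049839.2, with 9 to 33 counts per library and AL049839.2 rose by 1.04 ± 0.37 in Ako-3 cells (adjusted p = 0.025). The treatment of reads in such shared bases at counting is not given in the sources used here.

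CRP encodes C-reactive protein, the pentraxin most used as a marker of inflammation. CRP (ENSG00000132693, chr1:159712289-159714589, minus strand) had 6, 2 and 3 counts in control, 2, 4 and 1 in Ako-3 and 10, 9 and 3 in Mko-3 libraries. The counts of the 3 groups overlapped, and no fold change is given at this depth. APCS, a further pentraxin, had 0 counts in all control and Ako-3 libraries and 6, 1 and 0 counts in Mko-3. A count of 0 allows up to 3 counts in a library.

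The other genes of the response were described from 6 lists. Of 24 other positive acute phase proteins, 20 were tested in each comparison. In Ako-3 against control cells 4 were called, all higher, beside 3.52% of all genes called higher and 5.0% lower, with a list median of 0.40 on the log2 scale: SERPING1 (1.15 ± 0.08, adjusted p = 2e-10), the inhibitor of complement C1, A2M (1.54 ± 0.11, adjusted p = 2.3e-08), a broad protease inhibitor, MBL2 (1.19 ± 0.12, adjusted p = 7.2e-08), a lectin of the complement pathway, and C4BPA (1.27 ± 0.1, adjusted p = 2.4e-07), a complement regulator. In Mko-3 cells 1 rose, MBL2 (1.31 ± 0.12), and 4 fell, with a median of -0.17, beside 3.82% of all genes higher and 7.22% lower. SERPING1 lay at 0.99 ± 0.08 in Mko-3 (adjusted p = 8.1e-10), short of the threshold on size, and at -0.15 ± 0.05 between the clones. DESeq2 called 2 of the list higher in Mko-3 against control. FGG, a fibrinogen chain, fell by 1.25 ± 0.07 in Mko-3 (adjusted p = 4.8e-12) and HAMP, the iron hormone hepcidin, by 1.61 ± 0.24 (adjusted p = 6.7e-06). The other fibrinogen chains, FGA (-0.45 ± 0.06) and FGB (0.10 ± 0.06), were not called there. The other genes called lower were C4A (-1.92) and C4B (-2.16), near-identical complement genes whose reads cannot be told apart with certainty. In control replicate 2 several of these genes were low, with C4A at 0.569, HAMP at 0.716, C4BPA at 0.732 and A2M at 0.747 of the other control libraries. Without it the same 4 rose in Ako-3 (A2M 1.41, C4BPA 1.13), and in Mko-3 6 fell, with A2M (-1.03) and LCN2 added.

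In Mko-3 against Ako-3 cells, 7 of these 20 were called, all lower, with a median of -0.49, beside 3.47% of all genes. A2M fell by 2.46 ± 0.07 (adjusted p = 1.4e-43), C4BPA by 1.40 ± 0.05 (adjusted p = 1.2e-36) and FGG by 1.22 ± 0.05 (adjusted p = 1.2e-33). FGA (-0.84 ± 0.04) and FGB (0.23 ± 0.04) were not called between the clones. The remaining calls were LCN2 (-1.09), C4A, C4B and HAMP. LCN2, low in control replicate 2 like SAA1 and LBP, was at 76.5, 38.5 and 62.3 FPKM in control, 67.7, 63.7 and 64.4 in Ako-3 and 32.7, 26.7 and 33.5 in Mko-3 libraries. C4A, C4B and LCN2 were named after their values were seen.

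Of 12 negative acute phase proteins, 11 were tested. In Ako-3 cells 2 were called, both higher, with a median of 0.68, beside 3.52% of all genes. In Mko-3 cells 2 rose beside 3.82% and 1 of 11 fell beside 7.22% of all genes, with a median of -0.16. GC, the vitamin D-binding protein, rose by 2.33 ± 0.07 in Ako-3 and by 2.28 ± 0.07 in Mko-3, and SERPINA7, thyroxine-binding globulin, rose by 2.14 ± 0.11 and 1.42 ± 0.12. FETUB fell by 1.73 ± 0.37 in Mko-3 (adjusted p = 0.00052), and in Mko-3 against Ako-3 AHSG (fetuin-A) fell by 1.86 ± 0.06 and FETUB fell by 1.64 ± 0.4. The FETUB values rest on 20 to 30 counts in control, 21 to 29 in Ako-3 and 7 to 8 in Mko-3 libraries. The other positive and the negative list had medians above 0 in Ako-3 against control cells and below 0 in Mko-3 against Ako-3 cells, where 11 of 11 negative proteins lay below 0 with a median of -0.68. Of these, 10 had an unadjusted p under 0.05, and 2 also reached the threshold on size, beside 3.47% of all genes.

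**Figure D4:**
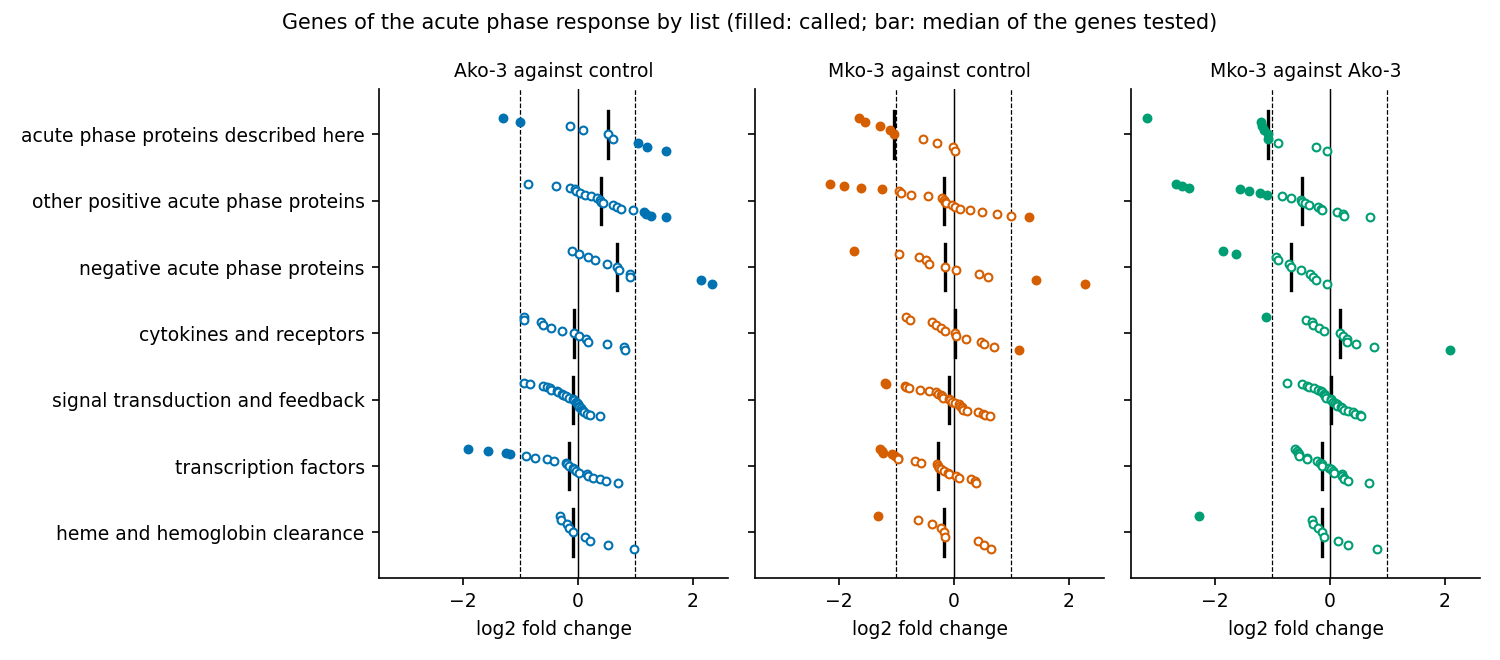
Log2 fold change of every tested gene of the acute phase response, by list (rows) and comparison (panels; edgeR, n = 3 per group). Filled points were called, open points were not, black bars are list medians and dashed lines mark a size of 1. In Mko-3 against Ako-3, 6 of 9 genes described here, 7 of 20 other positive and 2 of 11 negative acute phase proteins were lower. Of all genes tested, 3.47% were called lower there. The signal transduction genes centred on 0.01.

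Of 19 cytokines and receptors, 13 were tested, and their medians were -0.07, 0.01 and 0.18 in the 3 comparisons. IL6 itself had 0 to 6 counts per library. In Ako-3 against control cells edgeR called 0 of the 13, beside 3.52% of all genes called higher and 5.0% lower. Of the 13, 4 lay above and 6 below 0 at an unadjusted p under 0.05, and DESeq2 called 0. Without control replicate 2, TNF (-1.08) and IL10RB were called lower there. TNF, the ligand tumor necrosis factor, was at 1.52, 0.899 and 1.05 FPKM in control, 0.756, 0.539 and 0.547 in Ako-3 and 2.75, 2.29 and 2.79 in Mko-3 libraries. TNF rose by 1.14 ± 0.23 in Mko-3 against control (adjusted p = 0.00027) and by 2.08 ± 0.25 against Ako-3 (adjusted p = 6.3e-11), in the comparisons in which HP, SAA2 and LBP fell. IL1R2, the decoy receptor of interleukin-1, fell by 1.11 ± 0.25 in Mko-3 against Ako-3 (adjusted p = 0.00021). The receptor IL6R lay at 0.18 ± 0.09 in Ako-3 and -0.23 ± 0.09 in Mko-3 against control, and IL6ST at -0.60 ± 0.07 and -0.38 ± 0.06, none past the threshold on size.

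All 26 genes of signal transduction and feedback were tested, with medians of -0.08, -0.08 and 0.01. In Mko-3 against control cells 2 of the 26 fell, which is near the share of all genes called lower, 7.22%. Both are of the SOCS family of feedback inhibitors, and without control replicate 2 JAK2 (-1.02) was also called lower. SOCS3 was at 20.2, 14.9 and 16.4 FPKM in control, 9.42, 9.94 and 9.75 in Ako-3 and 8.27, 6.85 and 7.65 in Mko-3 libraries. The 3 groups did not overlap, and SOCS3 fell by 1.19 ± 0.11 in Mko-3 (adjusted p = 1.9e-08), while its value in Ako-3 was -0.83 ± 0.1 (adjusted p = 8.2e-07). SOCS2 fell by 1.20 ± 0.25 in Mko-3 (adjusted p = 0.00034). STAT3 lay at -0.49 ± 0.06 in Ako-3 and -0.43 ± 0.07 in Mko-3 against control, and at 0.06 ± 0.05 between the clones (adjusted p = 0.30). In Ako-3 against control edgeR and DESeq2 each called 0 of the 26, beside 3.52% of all genes higher and 5.0% lower in edgeR. Of the 26, 2 lay above and 8 below 0 at an unadjusted p under 0.05. Between the clones each method called 0, beside 2.26% of all genes higher and 3.47% lower in edgeR. There 9 lay above and 7 below 0 at an unadjusted p under 0.05.

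All 21 transcription factors were tested, with medians of -0.16, -0.28 and -0.14, and the calls against control cells were all lower, 4 in Ako-3 beside 5.0% of all genes and 5 in Mko-3 beside 7.22%. Without control replicate 2 these were 4 and 7, with NR1H4 and NFKB2 added in Mko-3. ATF3, RELB and NR3C1 fell in each clone. ATF3, a stress-induced factor, fell by 1.92 ± 0.09 in Ako-3 and 1.24 ± 0.09 in Mko-3, and RELB, of the NF-kB family, by 1.56 ± 0.1 and 1.26 ± 0.1. NR3C1, the glucocorticoid receptor, fell by 1.25 ± 0.12 and 1.02 ± 0.11. NR3C1, and NR1H4, JAK2 and IL10RB above, were named after their values were seen. NFKB2 fell by 1.19 ± 0.07 in Ako-3 and was at -0.98 ± 0.07 in Mko-3.

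C/EBP factors bind the promoters of many genes of the response. CEBPB was at 249, 248 and 209 FPKM in control, 136, 141 and 144 in Ako-3 and 98.0, 95.1 and 99.0 in Mko-3 libraries. The 3 groups did not overlap. CEBPB fell by 1.29 ± 0.07 in Mko-3 (adjusted p = 2.6e-12) and lay at -0.75 ± 0.07 in Ako-3 (adjusted p = 1.6e-08), and CEBPG fell by 1.08 ± 0.07 in Mko-3. CEBPA was at 0.48 ± 0.07 in Ako-3 and -0.08 ± 0.07 in Mko-3, and CEBPD at -0.06 ± 0.07 and -0.67 ± 0.07. Between the clones CEBPA, CEBPB and CEBPD lay at -0.55 ± 0.04, -0.53 ± 0.04 and -0.60 ± 0.04 (adjusted p at most 2.6e-18), short of the threshold on size. There edgeR and DESeq2 each called 0 of the 21 factors, beside 2.26% of all genes higher and 3.47% lower in edgeR. Of the 21, 4 lay above and 10 below 0 at an unadjusted p under 0.05. HNF4A, a hepatocyte factor, was at 0.70 ± 0.06 in Ako-3 and 0.30 ± 0.06 in Mko-3.

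Of 10 genes of heme and hemoglobin clearance, the pathway downstream of HP and HPX, 9 were tested, with medians of -0.09, -0.18 and -0.13. HPR was the call in Mko-3 against control, beside 7.22% of all genes called lower, and against Ako-3, beside 3.47%. CD163, the receptor for haptoglobin bound to hemoglobin, had at most 3 counts. In Ako-3 against control edgeR and DESeq2 each called 0 of the 9, beside 3.52% of all genes higher and 5.0% lower in edgeR. Of the 9, 3 lay above and 2 below 0 at an unadjusted p under 0.05.

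Genes within 100 kb of the 10 genes numbered 70, of which 25 to 27 were tested. In Ako-3 against control 3 of 27 rose and 3 fell, beside 3.52% and 5.0% of all genes. In Mko-3 against control 4 of 26 fell beside 7.22%, and between the clones 1 of 25, HPR, fell beside 3.47%, which is near the share of all genes. AKNA, which encodes an AT-hook protein, lies 904 bases from ORM2 and 7681 bases from ORM1, and fell by 1.57 ± 0.1 in Ako-3 and 1.67 ± 0.1 in Mko-3 (adjusted p = 1.5e-09 and 1.1e-09), whereas ORM2 rose in Ako-3. WHRN, 68828 bases from ORM2, fell by 1.11 ± 0.11 in Mko-3. Beside SERPINA3, which fell, SERPINA4 (1.05 ± 0.1) and SERPINA12 (1.01 ± 0.28) rose in Ako-3 cells at 42464 and 94533 bases. Near HPX, DNHD1 fell by 1.11 ± 0.09 in Ako-3 and 1.37 ± 0.1 in Mko-3, and AC084337.1 by 1.09 ± 0.36 in Ako-3.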

How the data were processed

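RNA of 9 libraries (3 control, 3 Ako-3, 3 Mko-3) was measured by paired-end sequencing of 150 bases after poly-T selection. To make the deposited raw counts per gene, the authors aligned reads to hg38 with HISAT2 2.0.5 and counted them with featureCounts 1.5.0-p3. The deposited FPKM were made by the authors from these counts, the gene length and a library scale set over all 9 libraries. Strand and overlap settings at counting are not given in the sources used here.

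Counts were tested with edgeR 4.0.16 in R 4.3.3 (TMM, robust quasi-likelihood F test, genes kept by filterByExpr with its minimum count set to 10), with 6 libraries per comparison. The standard error is the size of the log2 fold change divided by the square root of F. Alternatives were DESeq2 1.42.0, limma 3.58.1 on log2(FPKM + 1) and log2(FPKM + 0.1), other filters and scalings, a replicate block, and leaving out each library. Shares were compared with exact permutation tests (SciPy 1.17.1). The fit was checked on simulated counts. Total counts of 14638727 to 20179760 leave genes under about 10 counts imprecise.

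The text names the 10 genes, up to 3 called genes with the smallest adjusted p per list and comparison, called neighbours within 100 kb (3 per gene), related genes (HPR, SAA3P, SAA2-SAA4, APCS), APOB, MTTP and CEBPA, CEBPB, CEBPD, STAT3, IL6R, IL6ST, SOCS3 and HNF4A. A further gene of this rule is not reported here. Members and lists were chosen with earlier results of these data known. Library numbers did not pair the samples: correlations of same-numbered deviations ran from -0.0725 to 0.0643 over 16169 genes.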

Additional observations from a re-analysis of the deposited data

Results flagged for a closer look

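Of the 9 tested genes, 6 were called in the direct edgeR test of Mko-3 against Ako-3 cells, all lower in Mko-3. Over all 15528 genes tested, 3.47% were called lower and 2.26% higher. The direct test is that of the difference between their changes from control. On the log2 scale the 6 genes were HP (-3.18), LBP (-1.2), HPX (-1.19), SAA2 (-1.15), SAA1 (-1.07) and ORM2 (-1.07). The SAA1 call was lost in a fit of all 9 libraries and without Mko-3 replicate 2. ORM1 (-0.91, adjusted p = 3e-23) also differed, short of the threshold on size.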

How the results depend on the processing

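Of 413 alternative fold changes of the 9 genes, near-identical pairs summed among them, 394 kept their side of the threshold, 18 dropped below it and 1 passed it, and no called value changed sign. Among the values not called, 11 had a sign other than the reported one, in SAA4 and SERPINA3 between the clones, LBP in Ako-3 and HPX and ORM2 in Mko-3. The number of genes called ran from 4 to 5 in each comparison with control cells and from 5 to 6 between the clones when each library was left out. With limma on log2(FPKM + 1), 3 genes were called in Ako-3 and 3 in Mko-3 against control, since that pseudocount shrinks the changes of SAA4 (-0.849 and -0.984) and SERPINA3 (-0.409 and -0.425). With limma on log2(FPKM + 0.1), SERPINA3 was at -0.872 and -0.911. As a share of FPKM in place of counts, SAA1 took 77.4% of its pair in control, 85.4% in Ako-3 and 86.0% in Mko-3, and ORM1 took 70.9, 64.3 and 66.9%, because gene lengths differ. The order of levels was the same with TPM. With a replicate block, 5, 5 and 6 of the genes were called, the same as without it, and 1336, 1730 and 899 of all genes against 1345, 1739 and 890. Requiring 10 counts in every library called 841, 1113 and 511 of all genes, and limma on log2(FPKM + 1) called 317, 429 and 200. DESeq2 called 10, 18 and 12 of the 112 genes of the 6 lists, against 10, 17 and 12. At 49 counts per library or fewer, as for SAA4, CRP and, in the clones, SERPINA3, depth limits precision.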
